A study of Homo sapiens with 24 samples.

Results

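The 35 genes described here take part in cholesterol synthesis, trafficking and efflux. They were chosen by symbol, as probes whose RefSeq transcript maps to one of the 35 names. There were 20 synthesis enzymes, from ACAT2 and HMGCS1 at the entry of the pathway to DHCR7 at its end. The other 15 were transport genes, which cover sterol carriers, cholesterol ester formation, the lysosome, efflux, lipoprotein receptors and the LXR receptors. All 35 lay on the array with 43 probes, among 24817 genes with a symbol. Of these 35 genes, 34 were tested among 14235 tested genes. ABCG1, an efflux transporter, was the exception, well above background on 0 of 24 arrays. The tested members were well above background on every array, apart from LRP1 on 1 array of G-1 1 µM at 72 h.

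U251 is an established human glioblastoma cell line. The cells were held for 24 h in medium with charcoal-stripped serum, which is depleted of steroid hormones, and then treated. G-1 is a synthetic agonist of GPER, the G protein-coupled estrogen receptor, and DMSO is its solvent. The 6 groups were DMSO for 24 h, DMSO for 72 h, G-1 IC50 for 24 h, G-1 IC50 for 72 h, G-1 1 µM for 24 h and G-1 1 µM for 72 h, with 4 independent biological replicates each. Durations follow the titles and source names, since a further label gives 72 h for the samples titled G-1 IC50 24 h and 24 h for those titled G-1 1 µM 72 h. All results on these groups and on the change between durations rest on that reading. The IC50 dose is the lower of the 2 doses. All groups came from this 1 cell line grown in culture, without the other cells of a brain tumor.

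Each of the 24 samples was measured on 1 microarray with 1 color. The signal of a probe is given as log2 intensity relative to the 75th percentile of its array. Such a level can be compared between arrays for 1 probe, but not between probes. Of the 3 slides, 2 held the DMSO and G-1 IC50 arrays. G-1 1 µM had the third slide to itself, with 8 arrays scanned in a later session. Spots well above background made up 41.1% to 44.5% of an array in the first session and 38% to 40.7% in the later one. At a given duration, the dose of 1 µM and the third slide cannot be told apart. The glial and glioma markers GFAP, VIM, NES, SOX2, CD44 and S100B passed the background flag on 24 of 24 arrays. Of 8 markers of leukocytes, epithelium, endothelium and hepatocytes, 7 were above background on 0 arrays, and CDH5 was on 16. CDKN2A, which is known to be deleted in U251, had 2 probes, of which the brighter was above background on 24 arrays.

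Cells build cholesterol from acetyl-CoA through mevalonate, isoprenoid phosphates, squalene and lanosterol. When sterols in the endoplasmic reticulum fall, SREBP2 is released and raises the transcription of the synthesis enzymes. When oxysterols rise, the LXR receptors raise ABCA1 and ABCG1, which hand cholesterol to lipoprotein particles. Astroglial cells supply cholesterol to neurons on particles that carry APOE.

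At 24 h, G-1 1 µM raised 13 of 20 synthesis enzymes and lowered none. MVD, LSS, FDFT1 and DHCR7 had the largest differences, with 2.29-fold, 2.15-fold, 1.84-fold and 1.8-fold higher signals than DMSO. A gene was called at a limma adjusted p under 0.05, and at this threshold 18% of all 14235 tested genes were higher and 11.8% lower, or 29.8% in all. The median log2 difference of the 20 enzymes was 0.50, against 0.02 over all genes, whose quartiles were -0.18 and 0.20. In 9 of the 20 enzymes all G-1 1 µM arrays lay above all DMSO arrays, against 17.8% of all genes. Of 14 measured transport genes, 3 rose (STARD4, ABCA1 and APOE), VLDLR fell, and their median was 0.03.

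At 72 h, G-1 1 µM raised 14 of 20 synthesis enzymes and lowered GGPS1 and TM7SF2. MSMO1 was 2.54-fold higher, FDFT1 1.9-fold and IDI1 1.85-fold, whereas TM7SF2 was 3.02-fold lower. At this dose and duration 32.7% of all genes were called higher and 33.2% lower, so that 65.9% of genes changed. The 20 enzymes had a median log2 difference of 0.55, against -0.01 over all genes, whose quartiles were -0.43 and 0.36. In 13 enzymes the G-1 1 µM arrays lay wholly above those of DMSO, against 29.4% of all genes. Among the transport genes, NPC1, STARD4, SOAT1 and OSBP rose and VLDLR, LRP1, SCARB1, LIPA and NR1H3 fell. Their count of 9 called of 14, or 64.3%, was near the share over all genes, and their median was -0.11.

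With G-1 IC50, only transport genes were called among the 35. STARD4 and ABCA1 rose at 24 h, when 0.218% of all genes were called higher and 0.0281% lower, and ABCA1 rose at 72 h, when 0.436% were. In either direction the shares were 0.246% and 0.906%. None of the 20 synthesis enzymes passed limma's adjusted threshold at 24 h, with 0.0741 as their smallest adjusted p. With the replicate number as a block, MVD, IDI1, FDPS, FDFT1, LSS and DHCR7 passed. No share over all genes is given for that setting. The deviations of same-number DMSO and G-1 IC50 arrays correlated at 0.21, -0.11, 0.39 and 0.19. The labels do not say whether the number marks a shared culture. At an unadjusted p under 0.05, 15 of the 20 had a difference at 24 h, and the methods' t-test with a 2-fold threshold called 1. No share over all genes is given for either count, or for later counts at an unadjusted p. The enzymes had a positive difference in 19 of 20, with a median of 0.32 against -0.01 over all genes. In 5 of the 20, all G-1 IC50 arrays lay above all DMSO arrays, against 1.59% of all genes. These 5 were IDI1, FDPS, FDFT1, LSS and DHCR7. Within the 2 slides that held both DMSO and G-1 IC50, the median of the enzymes at 24 h was 0.38, with 2 G-1 IC50 arrays against 3, and 0.44, with 2 against 1. That 1 DMSO array had the lowest mean over the enzymes in its group, at -0.17. At 72 h the median of the enzymes was 0.13 against -0.02 over all genes, limma called none, and 0 had an unadjusted p under 0.05. Within the slides it was -0.03, with 1 G-1 IC50 array against 2, and 0.15, with 3 against 2.

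**Figure D1:**
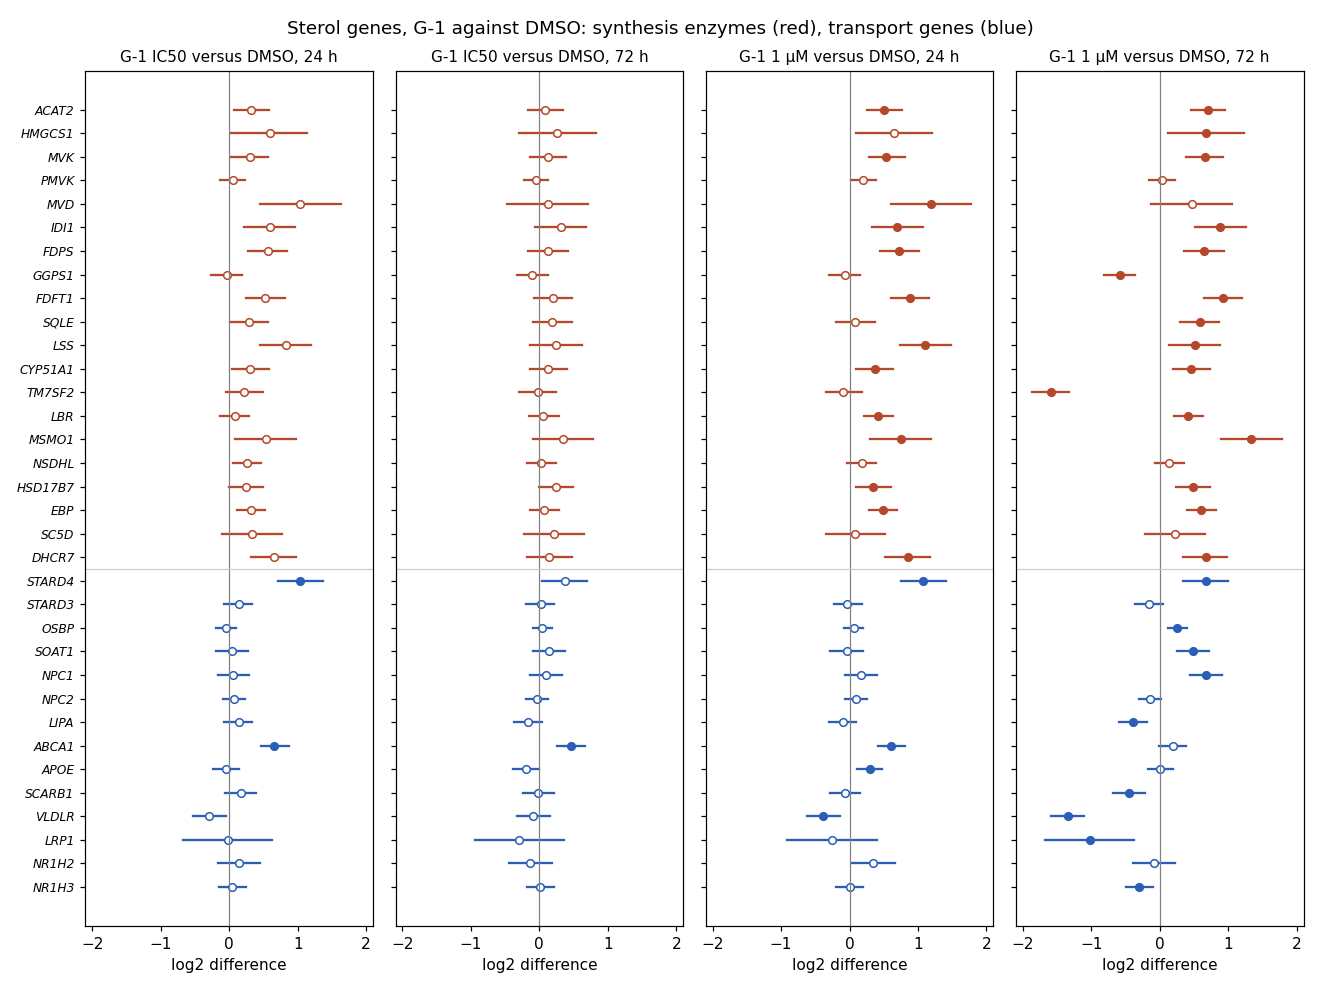
Log2 difference in signal between G-1 and DMSO (x axis) for the 34 tested genes in pathway order (y axis), for each dose and duration. Points are estimates and lines 95% confidence intervals. Filled points have a limma adjusted p under 0.05. Synthesis enzymes (red) lie mostly to the right of 0 at 24 h for both doses, and the TM7SF2 and VLDLR points lie at -1.59 and -1.34 in the last panel.

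The mean over the 20 synthesis enzymes on each array, relative to DMSO at 24 h, was between -0.17 and 0.24 with DMSO at 24 h. It was between 0.20 and 0.69 with G-1 IC50 and between 0.22 and 0.76 with G-1 1 µM at 24 h. The lowest array of each dose thus lay below the highest DMSO array. At 72 h the mean was between -0.25 and -0.05 with DMSO, -0.15 and 0.11 with G-1 IC50, and 0.13 and 0.38 with G-1 1 µM, which overlapped neither. The mean over the 14 transport genes lay between -0.08 and 0.20 on all 24 arrays, a narrower range. At 24 h it was between -0.08 and 0.06 with DMSO. Both doses lay wholly above that, at 0.10 to 0.19 with G-1 IC50 and 0.09 to 0.20 with G-1 1 µM. The median log2 difference of the 14 genes at 24 h was smaller, at 0.07 with G-1 IC50 and 0.03 with G-1 1 µM. STARD4 and ABCA1 had the largest differences at both doses. At 72 h the mean over the transport genes was between 0.04 and 0.12 with DMSO and 0.03 and 0.15 with G-1 IC50. With G-1 1 µM at 72 h it was lower than both, between -0.08 and 0.02.

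**Figure D2:**
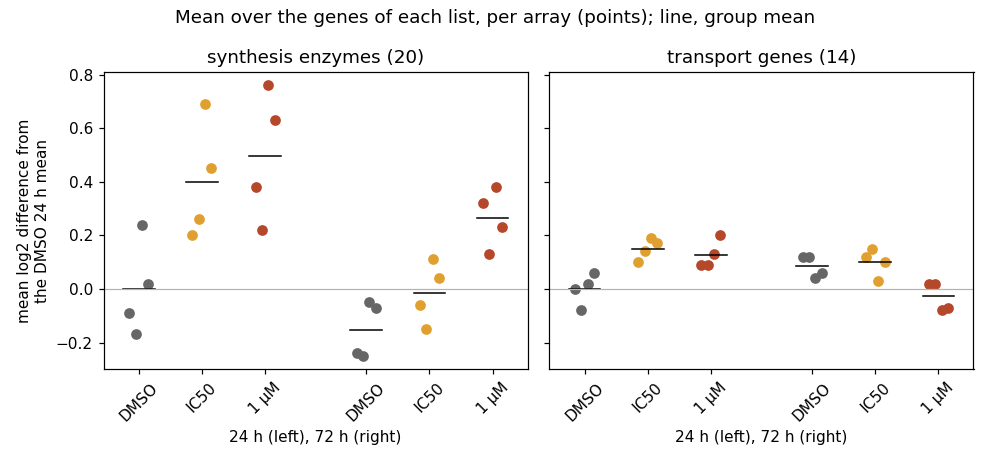
Mean log2 difference from the DMSO 24 h mean over the 20 synthesis enzymes (left) and the 14 measured transport genes (right), on each array. Points are arrays and lines group means. The synthesis means reach 0.76 with G-1 1 µM for 24 h, while the transport means lie between -0.08 and 0.20.

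The promoters of these genes were read for motifs that are known from sterol-regulated genes, since many of the enzymes rose together. RefSeq promoter windows (GRCh38.p14), from 250 bases before to 50 bases after the start of the gene, were at hand for 30 of the 35 genes. ACAT2, FDFT1, SQLE, ABCG1 and SCARB1 were missing. The NF-Y box CCAAT, on either strand, was present in 12 of 17 windows of synthesis enzymes (70.6%) and in 5 of 13 of transport genes (38.5%). Over all 35116 windows the share was 34.6%. The 5 enzymes without a match were PMVK, IDI1, GGPS1, CYP51A1 and LBR, of which IDI1, CYP51A1 and LBR rose with G-1 1 µM at both durations. NSDHL had 5 matches and was called in none of the 4 comparisons with DMSO. The Sp1 box GGGCGG was found in 82.4% of the synthesis windows, 92.3% of the transport windows and 45% of all. The E-box CACGTG was found in 2 of 17 and 1 of 13 windows, and in 7.26% of all. The sterol element TCACNCCAC, where N is any base, matched 0 of 17 and 0 of 13 windows and 1.13% of all, which says only that these letters are not in these windows.

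Windows are shown for 4 enzymes and 3 transport genes whose changes are described array by array, with CCAAT or its reverse complement in capitals, and each is written along the strand of its gene.
MVD, chr16:88663042-88663341, minus strand: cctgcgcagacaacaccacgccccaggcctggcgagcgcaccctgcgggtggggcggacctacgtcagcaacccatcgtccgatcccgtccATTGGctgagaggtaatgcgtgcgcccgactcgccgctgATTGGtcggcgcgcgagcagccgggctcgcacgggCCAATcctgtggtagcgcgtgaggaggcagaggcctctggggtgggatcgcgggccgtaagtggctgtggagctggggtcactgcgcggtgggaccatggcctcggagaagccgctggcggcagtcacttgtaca
LSS, chr21:46228725-46229024, minus strand: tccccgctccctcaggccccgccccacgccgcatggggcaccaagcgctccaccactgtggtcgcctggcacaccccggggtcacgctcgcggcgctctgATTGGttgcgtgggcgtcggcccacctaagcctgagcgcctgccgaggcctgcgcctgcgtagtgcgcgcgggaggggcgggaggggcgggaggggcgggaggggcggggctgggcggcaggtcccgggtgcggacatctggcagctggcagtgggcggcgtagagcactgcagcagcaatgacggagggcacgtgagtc
MSMO1, chr4:165327419-165327718, plus strand: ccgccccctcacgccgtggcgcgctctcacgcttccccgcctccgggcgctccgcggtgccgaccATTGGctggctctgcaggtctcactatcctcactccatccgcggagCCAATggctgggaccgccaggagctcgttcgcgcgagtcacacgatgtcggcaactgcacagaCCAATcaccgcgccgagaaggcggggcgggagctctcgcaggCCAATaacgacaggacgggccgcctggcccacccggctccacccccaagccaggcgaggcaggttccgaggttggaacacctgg
TM7SF2, chr11:65111622-65111921, plus strand: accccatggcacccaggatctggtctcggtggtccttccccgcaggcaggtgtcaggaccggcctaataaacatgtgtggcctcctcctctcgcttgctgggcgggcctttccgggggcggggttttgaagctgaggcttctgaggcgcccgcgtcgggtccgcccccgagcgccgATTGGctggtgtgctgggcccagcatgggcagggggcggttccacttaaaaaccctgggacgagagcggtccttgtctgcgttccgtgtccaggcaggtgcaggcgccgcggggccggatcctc
STARD4, chr5:111512486-111512785, minus strand: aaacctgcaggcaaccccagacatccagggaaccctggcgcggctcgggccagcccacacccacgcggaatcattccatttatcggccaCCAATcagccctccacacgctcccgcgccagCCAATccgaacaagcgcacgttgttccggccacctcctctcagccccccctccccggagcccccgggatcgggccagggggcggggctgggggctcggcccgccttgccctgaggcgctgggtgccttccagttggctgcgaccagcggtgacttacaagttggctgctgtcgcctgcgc
ABCA1, chr9:104928106-104928405, minus strand: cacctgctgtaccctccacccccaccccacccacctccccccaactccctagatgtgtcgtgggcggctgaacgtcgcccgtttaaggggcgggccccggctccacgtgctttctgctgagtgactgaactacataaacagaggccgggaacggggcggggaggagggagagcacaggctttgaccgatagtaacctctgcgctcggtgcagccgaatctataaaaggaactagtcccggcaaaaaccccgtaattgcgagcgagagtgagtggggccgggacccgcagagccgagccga
VLDLR, chr9:2621537-2621836, plus strand: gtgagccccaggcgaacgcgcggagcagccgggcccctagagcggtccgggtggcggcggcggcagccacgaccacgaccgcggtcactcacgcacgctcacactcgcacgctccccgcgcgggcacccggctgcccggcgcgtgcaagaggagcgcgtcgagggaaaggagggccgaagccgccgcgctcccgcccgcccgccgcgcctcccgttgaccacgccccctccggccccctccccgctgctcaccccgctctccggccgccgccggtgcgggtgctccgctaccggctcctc
MVD had 3 NF-Y boxes, MSMO1 4 and STARD4 2, while the ABCA1 and VLDLR windows held none. TM7SF2 had 1 box, at 72 bases before its start, and its signal fell. A match is a description of the sequence and does not show that a factor binds there.

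**Figure D3:**
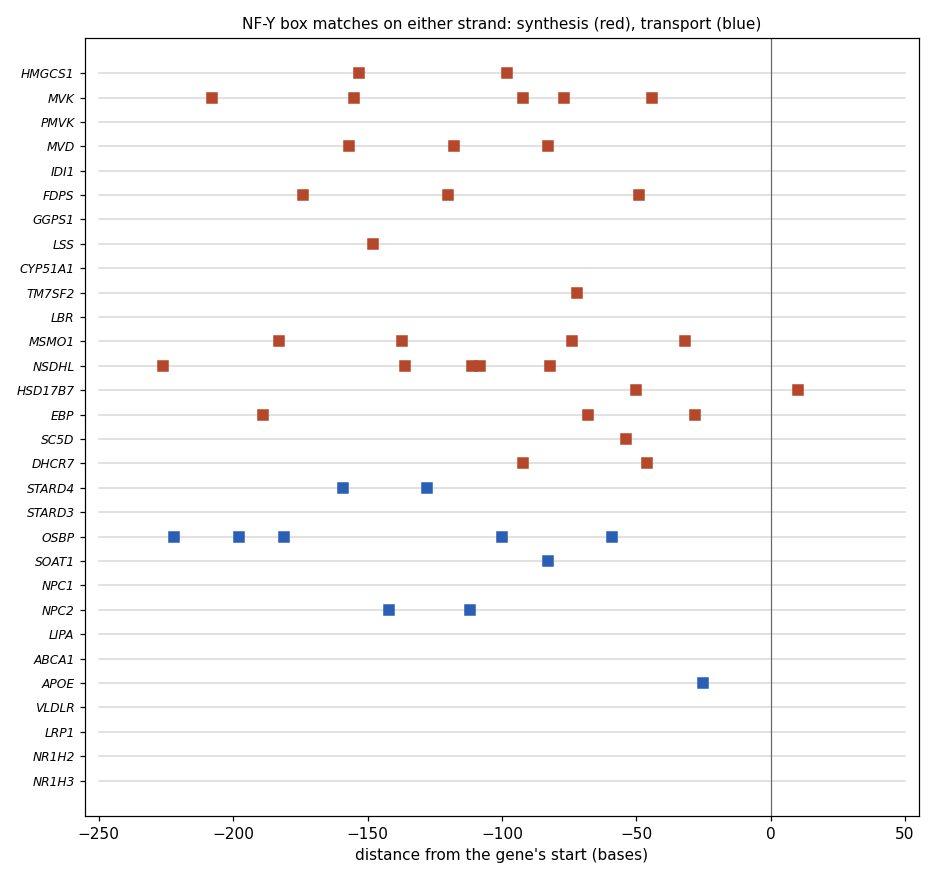
Positions of NF-Y box matches on either strand (squares) between 250 bases before and 50 bases after the start of each gene (x axis), for the 30 genes with a promoter window (y axis). Matches are frequent among the synthesis enzymes (red, 12 of 17 genes) and less so among the transport genes (blue, 5 of 13).

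The mevalonate arm turns acetyl-CoA into farnesyl and geranylgeranyl pyrophosphate. Of its 8 genes, 5 rose with G-1 1 µM at 24 h, beside 18% of all genes. These were ACAT2, the cytosolic thiolase, MVK, MVD, the decarboxylase that makes isopentenyl pyrophosphate, IDI1, its isomerase, and FDPS, the farnesyl pyrophosphate synthase. MVD signals were 0.80, 0.51, 1.70 and 1.09 with DMSO at 24 h, 1.77, 1.56, 2.87 and 2.05 with G-1 IC50, and 2.03, 1.57, 2.81 and 2.45 with G-1 1 µM. The DMSO array at 1.70 lay above the lowest array of either dose, so the groups overlapped, and both G-1 groups lay mostly higher. At each replicate number, both G-1 signals lay above that of DMSO. The log2 difference of MVD was 1.04 ± 0.28 (SE, n = 4 per group) with G-1 IC50, with a limma adjusted p of 0.287. With G-1 1 µM it was 1.19 ± 0.28, with a limma adjusted p of 0.00408.

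At 72 h the MVD signals were 0.76, 0.74, 1.23 and 1.02 with DMSO and 1.12, 1.56, 1.76 and 1.20 with G-1 1 µM, with a difference of 0.47 ± 0.28 that was not called (limma adjusted p = 0.149). The same 4 genes other than MVD remained higher with G-1 1 µM at 72 h, with log2 differences of 0.71 for ACAT2, 0.66 for MVK, 0.88 for IDI1 and 0.65 for FDPS. HMGCS1, which makes HMG-CoA, had a difference of 0.65 ± 0.27 at 24 h (limma adjusted p = 0.0707) and was called at 72 h, at 0.68 ± 0.27 (limma adjusted p = 0.0317). The 72 h call of HMGCS1 was lost without DMSO replicate 1 or 2 or without G-1 1 µM replicate 1, 3 or 4, at 0.58 to 0.67 with limma adjusted p of 0.0545 to 0.0884. With the replicate number as a block, HMGCS1, PMVK and NSDHL also passed at 24 h, with limma adjusted p of 0.00223, 0.0378 and 0.0463. PMVK, the phosphomevalonate kinase, differed by 0.20 at 24 h and 0.04 at 72 h.

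GGPS1 makes geranylgeranyl pyrophosphate, which is used to prenylate proteins and leaves the route to sterols. It was the only gene of the arm with a lower signal at G-1 1 µM for 72 h. Its signals were -0.92, -1.09, -1.10 and -0.99 with DMSO, -1.27, -0.91, -1.23 and -1.13 with G-1 IC50, and -1.30, -1.87, -1.63 and -1.63 with G-1 1 µM at 72 h. All G-1 1 µM arrays lay below all DMSO arrays, and the difference was -0.58 ± 0.11 (limma adjusted p = 9.5e-05). At 24 h it was -0.07 ± 0.11. The difference between the 2 durations was -0.51 ± 0.15, with a limma adjusted p of 0.0154, or -0.33 with normexp background correction, where it was no longer called.

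From squalene to lanosterol, FDFT1, the squalene synthase that commits the pathway to sterols, changed at both durations. Its signals at 24 h were 4.93, 4.81, 5.25 and 5.06 with DMSO, 5.35, 5.34, 5.91 and 5.56 with G-1 IC50, and 5.73, 5.56, 6.21 and 6.07 with G-1 1 µM. At 72 h they were 4.65, 4.61, 4.84 and 4.66 with DMSO, 4.88, 4.83, 5.03 and 4.83 with G-1 IC50, and 5.61, 5.54, 5.78 and 5.54 with G-1 1 µM. At both durations the G-1 1 µM arrays did not overlap those of DMSO, and at 24 h those of G-1 IC50 did not either. The log2 differences were 0.88 ± 0.13 at 24 h (limma adjusted p = 1.4e-04) and 0.92 ± 0.13 at 72 h (limma adjusted p = 5.1e-06) with G-1 1 µM. With G-1 IC50 at 24 h the difference was 0.53 ± 0.13, which did not pass (limma adjusted p = 0.2). It did pass with the replicate number as a block.

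LSS, which closes the ring of lanosterol, had signals of 5.17, 5.11, 5.88 and 5.69 with DMSO at 24 h, 6.13, 5.93, 6.68 and 6.42 with G-1 IC50, and 6.39, 6.21, 6.84 and 6.83 with G-1 1 µM. Every array of either dose lay above every DMSO array. The difference was 0.83 ± 0.18 with G-1 IC50 (limma adjusted p = 0.0741) and 1.10 ± 0.18 with G-1 1 µM (limma adjusted p = 2.6e-04). Without DMSO replicate 3 the former passed, at 0.97 (limma adjusted p = 0.0333), as it did with the replicate number as a block. The dimmer probe of LSS gave 0.99 and 1.12. At 72 h with G-1 1 µM, LSS was higher by 0.51 ± 0.18 (limma adjusted p = 0.0194). Without DMSO replicate 2 or without G-1 1 µM replicate 3 this call was lost, at differences of 0.46 and 0.43 with limma adjusted p of 0.0525 and 0.0641. SQLE, the squalene epoxidase, had a difference of 0.08 ± 0.14 at 24 h and 0.59 ± 0.14 at 72 h (limma adjusted p = 8.5e-04) with G-1 1 µM.

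The last 9 enzymes remove methyl groups and move double bonds on the way from lanosterol to cholesterol. With G-1 1 µM at 24 h, 6 rose (CYP51A1, LBR, MSMO1, HSD17B7, EBP and DHCR7), by 0.35 to 0.85 on the log2 scale, beside 18% of all genes. At 72 h the same 6 rose, by 0.42 to 1.34, beside 32.7% of all genes. The calls of CYP51A1 and HSD17B7 at 24 h, with limma adjusted p of 0.0382 and 0.0338, were each lost without any 1 of 5 arrays, which were replicates 1, 2 and 4 of DMSO and 3 and 4 of G-1 1 µM. Without these, CYP51A1 differed by 0.28 to 0.37 and HSD17B7 by 0.25 to 0.34, with limma adjusted p of 0.0657 to 0.131 and 0.0662 to 0.129. DHCR7, which carries out the final reduction to cholesterol, differed by 0.85 ± 0.16 at 24 h and 0.67 ± 0.16 at 72 h. NSDHL and SC5D were called at neither duration.

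MSMO1, the C4-methylsterol oxidase, had the largest rise of the enzymes at 72 h. Its signals at 72 h were -1.07, -1.15, -0.81 and -0.80 with DMSO, -0.65, -1.03, -0.29 and -0.46 with G-1 IC50, and 0.60, 0.12, 0.61 and 0.24 with G-1 1 µM. The G-1 1 µM arrays overlapped neither other group. The difference from DMSO was 1.34 ± 0.21 (limma adjusted p = 1.5e-05). At 24 h it was 0.75 ± 0.21 (limma adjusted p = 0.0131), with overlapping arrays, and this call was lost without G-1 1 µM replicate 3 (0.57, limma adjusted p = 0.0564). With G-1 IC50 the differences were 0.54 ± 0.21 at 24 h and 0.35 ± 0.21 at 72 h, neither called.

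TM7SF2 and LBR are the enzymes that reduce the same double bond of the sterol ring, and LBR is also a protein of the nuclear envelope. They moved in opposite directions with G-1 1 µM at 72 h. TM7SF2 signals were 1.69, 1.64, 1.44 and 1.67 with DMSO at 72 h, 1.67, 1.62, 1.51 and 1.55 with G-1 IC50, and -0.14, 0.26, 0.13 and -0.19 with G-1 1 µM. The 4 G-1 1 µM arrays lay far below the other 8, and the difference from DMSO was -1.59 ± 0.13 (limma adjusted p = 1.5e-09). At 24 h the TM7SF2 signals were 1.65, 1.20, 1.79 and 1.72 with DMSO and 1.37, 1.33, 1.65 and 1.66 with G-1 1 µM, which overlapped, with a difference of -0.09 ± 0.13. LBR was higher by 0.42 ± 0.10 at 24 h and by 0.42 ± 0.10 at 72 h (limma adjusted p of 0.00507 and 0.00135).

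**Figure D4:**
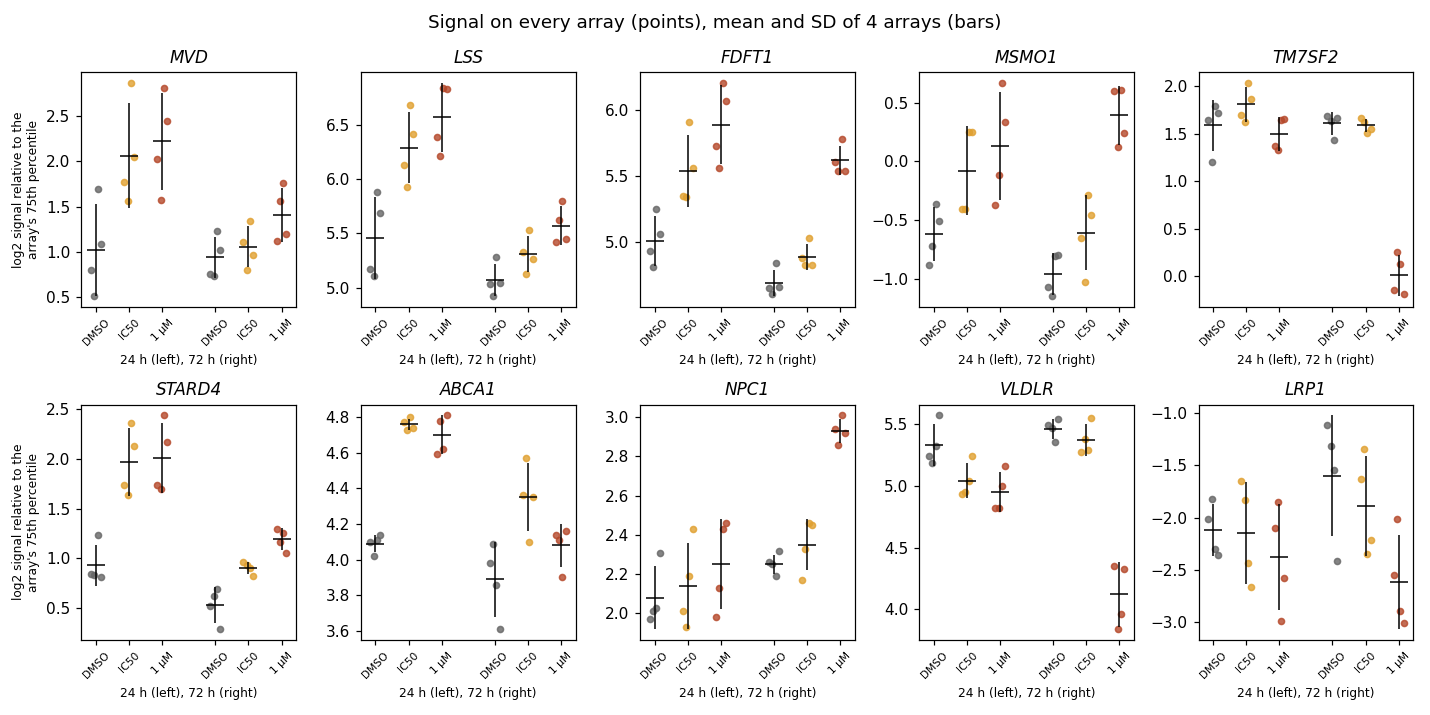
Signal of 10 genes on every array (y axis, log2 relative to the 75th percentile of the array) by treatment at 24 h and 72 h (x axis). Points are arrays and bars the mean and SD of 4 arrays. TM7SF2 and VLDLR fall with G-1 1 µM at 72 h, to means of 0.01 and 4.12, and NPC1 rises to 2.93. MVD, LSS and STARD4 are higher with both doses at 24 h.

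Among the carriers, STARD4, a soluble protein that moves sterol between membranes, rose at both doses. Its signals at 24 h were 0.84, 0.83, 1.24 and 0.81 with DMSO, 1.74, 1.64, 2.36 and 2.13 with G-1 IC50, and 1.74, 1.70, 2.44 and 2.17 with G-1 1 µM. No G-1 array overlapped the DMSO arrays. The differences were 1.04 ± 0.16 with G-1 IC50 (limma adjusted p = 0.00239) and 1.08 ± 0.16 with G-1 1 µM (limma adjusted p = 1.0e-04). The STARD4 call for G-1 IC50 was lost when limma was fitted to the arrays of that comparison alone (adjusted p = 0.205), and by the methods' t-test after adjustment. Within the 2 slides that held both DMSO and G-1 IC50, the difference for the IC50 dose was 1.04, with 2 G-1 IC50 arrays against 3, and 1.10, with 2 against 1. At 72 h the signals were 0.52, 0.62, 0.69 and 0.29 with DMSO, 0.96, 0.93, 0.90 and 0.82 with G-1 IC50, and 1.30, 1.17, 1.26 and 1.06 with G-1 1 µM. The 3 groups did not overlap at 72 h, in the order DMSO, IC50, 1 µM. The difference of 0.37 with G-1 IC50 did not pass (limma adjusted p = 0.471, exact permutation p = 0.0286, two-sided, the smallest that 4 against 4 arrays allow), and that of 0.67 ± 0.16 with G-1 1 µM did (limma adjusted p = 0.00106).

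STARD3, which tethers late endosomes to the endoplasmic reticulum, was not called with its brightest probe, at -0.03 for G-1 1 µM at 24 h. Its second probe was higher by 0.30 ± 0.09 there (limma adjusted p = 0.0179), so the 2 probes disagreed. OSBP, which exchanges sterol at the Golgi, rose with G-1 1 µM at 72 h by 0.26 ± 0.07. SOAT1, which stores cholesterol as esters, had signals of 0.85, 0.83, 0.81 and 0.75 with DMSO at 72 h, 0.97, 0.80, 0.95 and 1.08 with G-1 IC50, and 1.58, 1.01, 1.35 and 1.23 with G-1 1 µM. The G-1 1 µM arrays lay above all DMSO arrays, with a difference of 0.49 ± 0.11 (limma adjusted p = 9.2e-04). At 24 h SOAT1 signals were 0.75, 0.93, 0.70 and 0.72 with DMSO and 0.71, 0.90, 0.49 and 0.82 with G-1 1 µM, and the difference was -0.04 ± 0.11.

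NPC1 and NPC2 export cholesterol from the lysosome, where LIPA frees it from esters. NPC1 signals were 2.26, 2.25, 2.19 and 2.32 with DMSO at 72 h, 2.17, 2.33, 2.46 and 2.45 with G-1 IC50, and 2.94, 2.86, 3.01 and 2.92 with G-1 1 µM. The G-1 1 µM arrays stood apart from the other 8, and the difference from DMSO was 0.68 ± 0.11 (limma adjusted p = 2.2e-05). At 24 h NPC1 signals were 1.97, 2.01, 2.03 and 2.31 with DMSO and 1.98, 2.13, 2.43 and 2.46 with G-1 1 µM, a difference of 0.17 ± 0.11. LIPA fell at 72 h by 0.39 on the log2 scale (limma adjusted p = 0.00166) and NPC2 differed by -0.14 ± 0.08, which was not called. The 3 lysosomal genes therefore did not share a direction at G-1 1 µM for 72 h.

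ABCA1, which loads cholesterol onto apolipoproteins, was called in 3 of the 4 comparisons with DMSO. At 24 h its signals were 4.10, 4.02, 4.11 and 4.14 with DMSO, 4.77, 4.73, 4.80 and 4.74 with G-1 IC50, and 4.59, 4.78, 4.62 and 4.81 with G-1 1 µM. Both G-1 groups lay wholly above DMSO and overlapped each other. The differences were 0.66 ± 0.10 with G-1 IC50 (limma adjusted p = 0.00134) and 0.61 ± 0.10 with G-1 1 µM (limma adjusted p = 1.9e-04). Within the 2 slides the difference for the IC50 dose was 0.64, with 2 G-1 IC50 arrays against 3, and 0.74, with 2 against 1. The ABCA1 call for G-1 IC50 was lost with the 2-fold threshold. The methods' t-test includes that threshold, so a log2 difference of 0.66 could not pass it, adjusted or not.

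At 72 h ABCA1 signals were 3.98, 4.09, 3.86 and 3.61 with DMSO, 4.36, 4.57, 4.10 and 4.35 with G-1 IC50, and 4.14, 4.11, 3.90 and 4.16 with G-1 1 µM. The G-1 IC50 arrays lay just above those of DMSO, and the G-1 1 µM arrays overlapped both. With G-1 IC50 the difference was 0.46 ± 0.10 (limma adjusted p = 0.0221). Without DMSO replicate 3 or 4, or G-1 IC50 replicate 1, 2 or 4, it was between 0.37 and 0.46 and was not called, at limma adjusted p of 0.0642 to 0.105. Nor was it called with no filter on dim probes or with the arrays of the comparison alone. A log2 difference of 0.46 could not pass the 2-fold threshold, which the methods' t-test also includes. Within the slides the G-1 IC50 difference was 0.72, with 1 G-1 IC50 array against 2, and 0.35, with 3 against 2. With G-1 1 µM it was 0.19 ± 0.10 (limma adjusted p = 0.0907). The dimmer ABCA1 probe gave 0.32, not called, and 0.55, called, for the 2 doses at 72 h, so that which dose is called depends on the probe. APOE, the apolipoprotein of astroglial particles, rose with G-1 1 µM at 24 h by 0.30 ± 0.09 (limma adjusted p = 0.0161). This call was lost with normexp background correction (0.21) and without DMSO replicate 2 (0.23, limma adjusted p = 0.0623).

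The 3 lipoprotein receptors all fell with G-1 1 µM at 72 h, beside 33.2% of all genes. VLDLR, which takes up apolipoprotein E particles and binds reelin, had signals of 5.49, 5.47, 5.35 and 5.54 with DMSO at 72 h, 5.27, 5.38, 5.29 and 5.55 with G-1 IC50, and 4.35, 3.84, 3.96 and 4.33 with G-1 1 µM. The G-1 1 µM arrays lay below all others, at a difference of -1.34 ± 0.12 from DMSO (limma adjusted p = 4.8e-09), or 2.54-fold lower. Its second probe gave -1.60. At 24 h VLDLR signals were 5.24, 5.18, 5.32 and 5.57 with DMSO, 4.93, 4.95, 5.04 and 5.24 with G-1 IC50, and 4.82, 4.82, 5.00 and 5.16 with G-1 1 µM. Only the G-1 1 µM arrays were wholly below DMSO, with a difference of -0.38 ± 0.12 (limma adjusted p = 0.0199). This call was lost without DMSO replicate 4 (-0.30) or without G-1 1 µM replicate 1 (-0.33) or 2 (-0.34), and the second probe at -0.27 was not called.

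LRP1, a large endocytic receptor for APOE particles, had a dim probe. Its signals at 72 h were -1.11, -1.31, -1.54 and -2.42 with DMSO, -1.63, -1.34, -2.35 and -2.22 with G-1 IC50, and -2.55, -2.01, -2.90 and -3.01 with G-1 1 µM, of which 3 arrays were well above background. The DMSO array at -2.42 lay within the range of G-1 1 µM. The difference was -1.02 ± 0.31 (limma adjusted p = 0.00726, exact permutation p = 0.0571, two-sided). SCARB1, the receptor for high density lipoprotein, fell by 0.45 on the log2 scale (limma adjusted p = 0.00134). Of the LXR receptors, NR1H3 fell by 0.30 on the log2 scale at G-1 1 µM for 72 h (limma adjusted p = 0.00925), and NR1H2 was called in none of the 4 comparisons with DMSO.

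The effect of G-1 1 µM differed between the durations in 6 of the 34 genes, or 17.6%, against 34.3% of all genes. An offset shared by all arrays of the third slide cancels in this comparison. The change from 24 h to 72 h was -1.51 ± 0.18 for TM7SF2 (limma adjusted p = 3.8e-06), -0.97 ± 0.16 for VLDLR (1.7e-04) and -0.51 ± 0.15 for GGPS1. It was 0.53 ± 0.16 for SOAT1 (limma adjusted p = 0.0161) and 0.51 ± 0.16 for NPC1 (0.0179), whose signals rose more at 72 h. For ABCA1 it was -0.42 ± 0.14 (limma adjusted p = 0.0239), and this call was lost without DMSO 72 h replicate 1 or 2, G-1 1 µM 24 h replicate 4 or G-1 1 µM 72 h replicate 3, at -0.35 to -0.39. With no filter on dim probes, which adds to the probes adjusted over, the calls of GGPS1, SOAT1, NPC1 and ABCA1 were lost, at limma adjusted p of 0.0628, 0.0635, 0.0706 and 0.0974, while those of TM7SF2 and VLDLR were kept. The interaction of the other 18 synthesis enzymes was not called, with 11 of 20 above 0 and a median of 0.03. For MVD and LSS it was -0.72 (95% interval -1.55 to 0.11) and -0.60 (-1.13 to -0.06). For G-1 IC50 the interaction was below 0 in all 20 enzymes, with a median of -0.24 against -0.01 over all genes. However, limma called 0 of 34 genes, beside 0.014% of all genes. At an unadjusted p under 0.05 there were 6 of the 34, without a share over all genes.

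**Figure D5:**
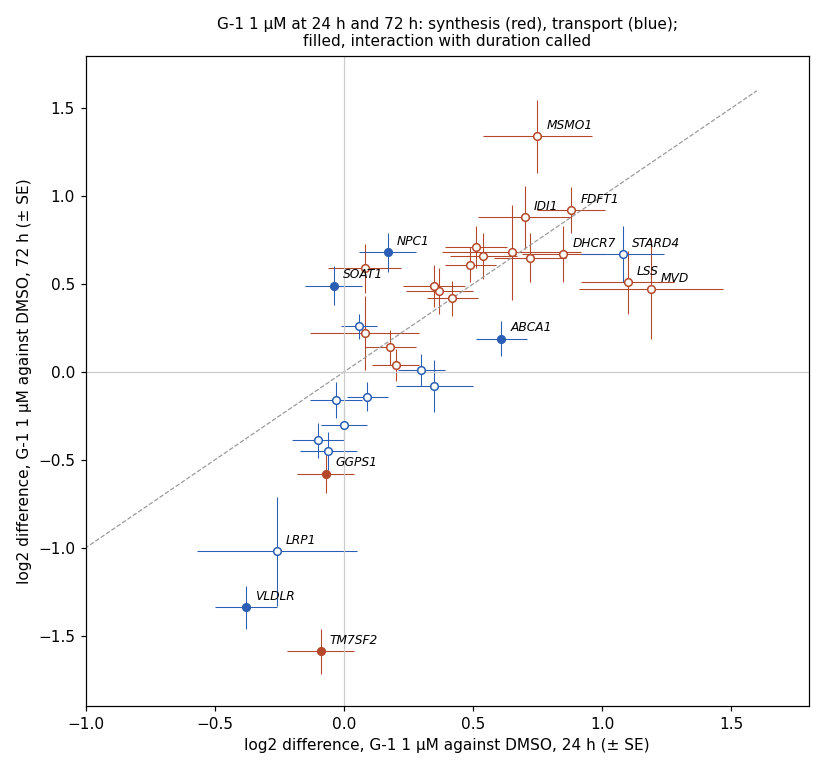
Log2 difference between G-1 1 µM and DMSO at 24 h (x axis) and 72 h (y axis) for the 34 tested genes, with SE. Filled points have a limma adjusted p under 0.05 for the difference between durations, and the dashed line marks equal differences. Most synthesis enzymes (red) lie near the line above 0, TM7SF2, VLDLR and GGPS1 lie below it, and NPC1 and SOAT1 above it. Both axes use the same DMSO-based scale, and each duration has its own DMSO arrays.

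Between the doses at 24 h, 2 of the 34 genes were called, LBR and APOE, both 0.34 higher with G-1 1 µM (limma adjusted p of 0.019 and 0.008), against 25.4% of all genes (16.1% higher and 9.31% lower). The LBR call was lost without G-1 1 µM replicate 1 or 2 or G-1 IC50 replicate 3 or 4, at 0.29 to 0.31 (limma adjusted p of 0.0555 to 0.0703), and when limma was fitted to the arrays of the comparison alone (adjusted p = 0.0849). The median difference of the synthesis enzymes was 0.15, against 0.03 over all genes. At 72 h, 11 synthesis enzymes were higher and 2 lower with G-1 1 µM than with G-1 IC50, where 33.5% of all genes were higher and 31.5% lower, 65% in all. Their median was 0.38 against 0.01, with MSMO1 at 1.00, FDFT1 at 0.72 and TM7SF2 at -1.57. Of the transport genes, 4 were higher and 5 lower, with VLDLR at -1.25 and ABCA1 at -0.27. The ABCA1 call was lost without G-1 1 µM replicate 3 (-0.21) or G-1 IC50 replicate 2 (-0.20), and the mean of its probes differed by -0.02. The calls of LRP1 (-0.73) and APOE (0.21) were lost without any 1 of 5 and any 1 of 7 of the 8 arrays. For LRP1 these were replicates 1, 3 and 4 of G-1 1 µM and 1 and 2 of G-1 IC50, at -0.55 to -0.76, and for APOE all but replicate 4 of G-1 1 µM, at 0.16 to 0.22. These comparisons share the G-1 1 µM arrays with those against DMSO and, like them, set the third slide against the others.

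In the DMSO groups, APOE was the only 1 of the 34 genes called between the durations, against 3.28% of all genes (1.26% higher and 2.02% lower). Its arrays are given after its values were seen. The APOE signals were 0.52, 0.23, 0.35 and 0.63 at 24 h and 1.24, 1.25, 1.06 and 1.47 at 72 h, which did not overlap. The difference was 0.82 ± 0.09 (limma adjusted p = 3.8e-05). The synthesis enzymes had a median of -0.12 from 24 h to 72 h against -0.02 over all genes, with 18 of 20 below 0. None of them was called by limma. At an unadjusted p under 0.05 there were 4, without a share over all genes.

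A further 60 genes of the pathway were read beside the 35, of which 50 were measured. With G-1 IC50, 5 rose and 0 fell at 24 h, where 0.218% and 0.0281% of all genes did, and 1 rose at 72 h, where 0.436% did. The rise at 24 h over 2-fold was SREBF1, which encodes the SREBP1 regulators of lipid synthesis, at 1.02 ± 0.09 (limma adjusted p = 2.7e-06). With G-1 1 µM at 24 h, 16 rose and 4 fell, where 18% and 11.8% of all genes did, and INSIG1, an SREBP target that retains SREBP in the endoplasmic reticulum, rose by 1.07 ± 0.16 (limma adjusted p = 1.3e-04). Of the 10 measured genes of SREBP control and uptake, 6 rose, beside the same 18%. At 72 h, 17 rose and 14 fell, shares near the 32.7% and 33.2% of all genes. INSIG1 was still higher, by 0.72, whereas SREBF1 was lower, with a difference of -0.76 (limma adjusted p = 3.3e-07). At 24 h SREBF1 was higher with the same dose, by 0.83 ± 0.09 (limma adjusted p = 6.0e-06). Its change between the durations at 1 µM was -1.60 ± 0.13 (limma adjusted p = 4.3e-08). The largest differences from DMSO at 72 h were -1.43 ± 0.14 for ABCA5, an ABC transporter, 1.32 ± 0.08 for PDSS1, which makes the side chain of ubiquinone, and -1.26 ± 0.08 for CYP27A1, a sterol hydroxylase of mitochondria. In extracts of whole cultures, less RNA per cell and fewer cells with the RNA cannot be told apart.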

How the data were processed

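RNA from U251 cells was measured on 24 Agilent arrays with 1 color, 4 biological replicates for each of 6 groups taken from the sample titles, with which 1 label of duration disagrees for the 24 h IC50 and 72 h 1 µM samples. The authors deposited scanner files, whose processed signal intensity is background-subtracted by Feature Extraction (version 12.1.1.1 per the file headers, 10.7.3.1 per the labels), with flags of probes well above background. They also deposited a log2 table, which equals the values used here after a constant per probe and per array (median residual 1.5e-07), so that its centring is per probe. Depth is not defined for arrays, and the number of arrays limits the precision.

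Control spots were left out, replicate spots were averaged, and log2 intensities were scaled by subtracting the 75th percentile of the array. A probe was tested if some group had it flagged well above background on 4 of 4 arrays (22970 of 58118 probes). Of 35956 probes with a RefSeq accession, 35032 matched a symbol, and a gene was read from its brightest tested probe. limma 3.58.1 (R 4.3.3) fitted 6 group means to all 24 arrays, with Benjamini-Hochberg adjustment over all tested probes. The test was checked on simulated data with independent noise on each array. That check did not cover arrays that deviate together by replicate number or slide. Single genes were also tested by exact permutation of 4 against 4 arrays, for which 0.0286 is the smallest possible p.

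The members and lists were chosen with earlier results of these data known. Arrays are printed for up to 3 called genes per list with the largest difference in each comparison with DMSO, or between durations at 1 µM. Genes of the wider pathway are named where called past 2-fold, at most 3 per comparison, apart from results that are not reported here. Arrays with the same replicate number deviated together for G-1 1 µM and DMSO at 24 h, with correlations of 0.17, 0.27, 0.21 and 0.28, so that blocked values are given there. In the other comparisons with DMSO at least 1 pair did not pass 0.1. For G-1 IC50 at 24 h, blocked calls are named beside the main result without their values. Alternatives covered normalization, background, filter, probe, arrays fitted, blocks, prior variance, call rule, the methods' t-test and leaving out each array.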

Additional observations from a re-analysis of the deposited data

Results flagged for a closer look

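Of 204 groups of 4 arrays examined, 1 array stood apart from the other 3 in 5. These were SQLE with DMSO at 72 h (replicate 3, at 3.24), STARD4 with DMSO at 24 h (replicate 3, at 1.24), STARD3 with G-1 1 µM at 24 h (replicate 2, at 4.95), APOE with G-1 IC50 at 72 h (replicate 3, at 0.97) and NR1H2 with DMSO at 24 h (replicate 2, at 1.53). Chance alone gives about 1 in 20 groups.

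The effect of G-1 1 µM differed between 24 h and 72 h, by limma's test of the difference, in 6 genes. The 72 h effect minus the 24 h effect was -0.51 for GGPS1, -1.51 for TM7SF2, 0.53 for SOAT1, 0.51 for NPC1, -0.42 for ABCA1 and -0.97 for VLDLR on the log2 scale.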

How the results depend on the processing

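No called member changed direction under any alternative run. Counts below are of synthesis enzymes and of transport genes called, against 20 and 14 tested. Both t-tests include the 2-fold threshold. For G-1 IC50 at 24 h, synthesis enzymes went from 0 to 1 with normexp background, with probes above background on all 24 arrays, with an intensity trend and by the methods' t-test without adjustment, and transport genes from 2 to 1 with the arrays of the comparison, the 2-fold threshold and the unadjusted t-test, and to 0 by the adjusted t-test. For G-1 IC50 at 72 h, transport genes went from 1 to 0 with no filter, the arrays of the comparison, the 2-fold threshold and both t-tests. With the 2-fold threshold, the unadjusted and the adjusted t-test, G-1 1 µM at 24 h gave 2, 2 and 1 synthesis enzymes (from 13) and 1, 1 and 1 transport genes (from 4). At 72 h these gave 2, 2 and 2 (from 16) and 2, 2 and 1 (from 9), and for 1 µM against IC50 at 72 h 1, 1 and 1 (from 13) and 1, 1 and 1 (from 9). For the 1 µM effect between durations, synthesis enzymes went from 2 to 1 with normexp, no filter and 2-fold, and transport genes from 4 to 1 with no filter, 7 with slide as a block and 0 with 2-fold. For 1 µM against IC50 at 24 h, synthesis enzymes went from 1 to 2 with the deposited table, no filter, the stricter filter and the intensity trend, and to 0 with the arrays of the comparison, 2-fold and both t-tests. Transport genes went from 1 to 2 with quantile normalization, to 4 with normexp, to 2 with the percentile over probes above background on all arrays (chosen after seeing the data), and to 0 with 2-fold and both t-tests. For DMSO, transport genes went from 1 to 0 with 2-fold and both t-tests.

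With the replicate number as a block, synthesis enzymes called with G-1 IC50 at 24 h went from 0 to 6 (MVD, IDI1, FDPS, FDFT1, LSS and DHCR7), those of the 1 µM effect between durations from 2 to 6, and those of DMSO from 0 to 3. For 1 µM against IC50 at 24 h the block gave 2 synthesis enzymes and 2 transport genes. No share over all genes is given for these blocked fits. Between the durations of DMSO, same-number arrays correlated at -0.02, -0.16, -0.07 and 0.22. Of 60 pairs with the same number, 33 correlated over 0.1, between -0.32 and 0.53.

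Leaving out 1 array in turn gave these lowest and highest counts of synthesis enzymes and transport genes: 0 to 1 and 2 to 2 for IC50 at 24 h, 0 to 0 and 0 to 1 for IC50 at 72 h, 10 to 15 and 3 to 4 for 1 µM at 24 h, 14 to 17 and 9 to 10 for 1 µM at 72 h, 2 to 4 and 3 to 6 for the 1 µM effect between durations, 0 to 2 and 1 to 1 for the doses at 24 h, 11 to 13 and 6 to 9 for the doses at 72 h, and 0 to 0 and 1 to 1 for DMSO. The count of synthesis enzymes moved by over 1.5 times without DMSO 24 h replicate 3 (1 for IC50 at 24 h), without 1 µM 24 h replicate 3 (4 between durations), and for the doses at 24 h without 1 µM replicate 1 (0), IC50 replicate 3 (2) or IC50 replicate 4 (0). That of transport genes for IC50 at 72 h was 0 without DMSO replicate 3 or 4 or IC50 replicate 1, 2 or 4. The cause of these changes was not tested. A slide block could not be fitted for 1 µM against DMSO or IC50 at 1 duration, and the t-test was not run for differences between durations. Signal over background limits LRP1 and ABCG1.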

Other observations

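The mean over the 20 synthesis enzymes was highest on the array numbered 3 in each of the 6 groups. Relative to DMSO at 24 h, these arrays lay at 0.24, 0.69 and 0.76 after 24 h with DMSO, the IC50 dose and the 1 µM dose, and in the same order at -0.05, 0.11 and 0.38 after 72 h. The labels do not say whether a replicate number marks a shared culture or day.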
